A study of Drosophila melanogaster with 2 samples.

Results

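The genes described here encode subunits of the 5 complexes of oxidative phosphorylation in the fruit fly Drosophila melanogaster. Members were chosen by gene symbol: the series ND-, UQCR-, COX, ATPsyn and SdhA to SdhD, with RFeSP, levy, cype and Cyt-c1. This set was chosen with earlier results of these data known. Of 12236 genes named by a probe with 1 gene symbol, 77 were members, measured by 84 probes. A value on both arrays was present for 71 of the 77, set against 10584 of all named genes. The RefSeq table of current symbols held 94 symbols that fit the choice, and the 17 without such a probe, among them the mitochondrially encoded COX1, COX2 and COX3, were not analysed here.

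RNA of larvae was hybridised on 2 arrays with 2 channels each. The B52 larvae came from the cross GMR X GFP-B52 and carried the SR splicing factor B52 fused to green fluorescent protein. Control larvae came from GMR X GFP-NLS, in which the same fluorescent protein is tagged for import into the nucleus, so both groups shared the GMR cross and a fluorescent protein transgene. The labels describe the control RNA of replicate 1 as cytoplasmic and the other 3 channels as polyA RNA. On replicate 1, as labelled, the kind of RNA thus differed along with the transgene, and their effects cannot be told apart there. GMR names a promoter active in the developing eye, a small part of a larva, and the labels give neither the larval age, the number of larvae nor whether the arrays held separate RNA extracts. P-values therefore measure only the spread between these arrays, which may be technical. That spread, also given as SD below, may include the labelled difference in the kind of RNA. The study asked if extra B52 changes expression across the genome. B52 RNA was labelled with Cy5 on replicate 1 and with Cy3 on replicate 2.

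Oxidative phosphorylation is the chain of mitochondrial enzymes that burns nutrients to make ATP. Complex I takes electrons from NADH and complex II from succinate, complex III passes them to cytochrome c, complex IV reduces oxygen, and complex V uses the resulting proton gradient to make ATP. Drosophila carries duplicates of many of the nuclear genes, and a good number of these duplicates are known for expression in testis. Their symbols mostly end in L, and they are called testis-type paralogues here. The files give ratios and no levels, so neither the tissue of a gene's expression nor its abundance could be checked.

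Each deposited value is 1 log ratio per probe and array, with its log base and direction unstated. Values are therefore given in 2 ways. The channel reading takes the value on each array as B52 over control. The dye reading takes it as Cy5 over Cy3, so replicate 2 has its sign reversed before B52 is set over control. Either ratio could also run the other way, as control over B52 or Cy3 over Cy5. Every higher or lower in B52 given for that reading would then be reversed. A gene with the same deposited sign on both arrays thus has the same direction on both arrays in the channel reading alone, and a gene with opposite signs has it in the dye reading alone. Values after a gene name are deposited log ratios unless a reading is named. Values were present for 13919 spots of replicate 1 and 14026 of replicate 2, their medians over all spots were -0.006 and 0.01, and 12500 probes were tested. Having only 2 arrays limits the precision throughout. The 5 probes of B52 itself averaged -0.136 on replicate 1 and 0.0424 on replicate 2. That is -0.0468 ± 0.126 for the channel reading and -0.0892 ± 0.0662 for the dye reading (SD, n = 2 arrays). B52 RNA was thus not higher in the RNA labelled B52 in either reading as defined here. If a ratio runs the other way, the sign of its mean is reversed, so these values do not settle whether B52 RNA was raised. Below, higher or lower in B52 refers to the RNA labelled so.

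No oxidative phosphorylation gene passed the test, and most lay close to 0. Of the 71 genes, 41 (57.7%) had a deposited value less than 0.1 from 0 on both arrays, where the share over all named genes was 28.2%. A value of 0.1 stands for 1.26-fold on a log10 scale and 1.07-fold on a log2 scale. With the median of each of 48 blocks of neighbouring spots subtracted, the shares were 52.1% of the members and 35.4% of the other named genes. The spread between genes was also narrower than over the other named genes. The middle 50% of the members spanned 0.0915 on replicate 1 and 0.147 on replicate 2, against 0.187 and 0.214 for the other named genes. This was not particular to the members: the 16 electron carriers and assembly factors described below spanned 0.0927 and 0.064, and 62.5% of them were within 0.1 of 0 on both arrays.

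Limma, run over all 12500 probes against a ratio of 0, called 0 of the 76 member probes at an adjusted p of 0.05 in either reading, and percent called over all probes was 0% in each. At an unadjusted p under 0.05 it had 1 member probe in the channel reading (1.32%, with 6.52% of all probes) and 0 in the dye reading (6% of all probes). The lowest adjusted p in limma among members was 0.705 (channel reading) and 0.852 (dye reading). A rule of size without a p-value, the same direction and at least 0.301 on both arrays, equal to 2-fold on a log10 scale, was met by 1 member probe in the channel reading. It was met by 1.52% of all probes. In the dye reading 0 member probes and 1.62% of all probes met it. With the size set at 1, 2-fold on a log2 scale, 0 members met it in either reading, and percent called was 0%.

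**Figure D1:**
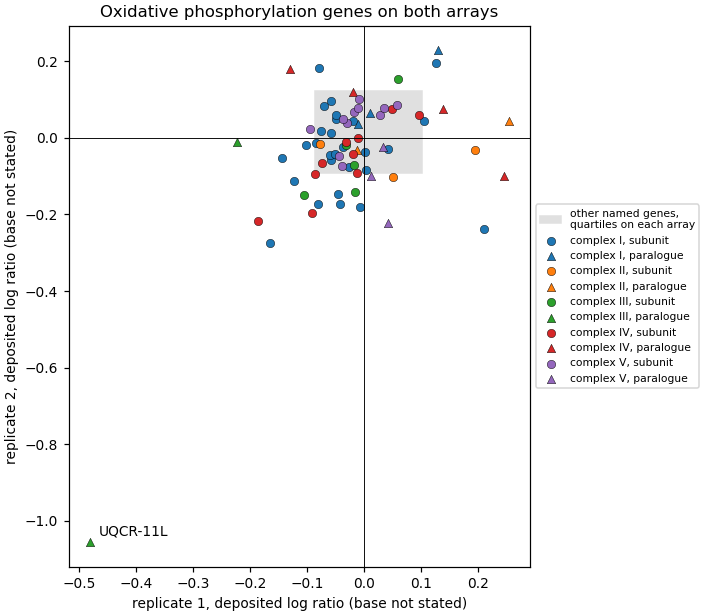
Deposited log ratio of each of the 71 oxidative phosphorylation genes on replicate 1 (horizontal axis) and replicate 2 (vertical axis), coloured by complex, with circles for subunits and triangles for paralogues whose symbol ends in L or in L and a digit. The grey box spans the quartiles of the other named genes on each array, and UQCR-11L at -0.481 and -1.06 lies apart from all other members.

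The signs of the members were not spread evenly over the 4 possible patterns. Of the 71 genes, 32 (45.1%) were negative on both arrays, a direction lower in B52 in the channel reading, where the share over all named genes was 24.3%. Positive on both were 12 genes (16.9%; 28.1% of all named genes). Positive on replicate 1 and negative on replicate 2, higher in B52 in the dye reading, were 10 (14.1%; 21.9% of all named genes). The opposite order, lower in B52 in the dye reading, was held by 17 (23.9%; 25.6% of all named genes). Subtracting block medians left 29 members (40.8%) below 0 on both arrays and 19 (26.8%) above it, where the other named genes had 23.4% and 24.7%, so the lower share of positive genes was no longer seen. That step changed the pair of signs for 28 of the 71 genes, and 20 of the 32 negative on both remained so. The direction in the channel reading turned for 6: COX4, COX5B, COX8, ND-51, ND-B17.2 and RFeSP. Most of these values were small, and the count says nothing of any single gene.

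In the channel reading the median of the 71 genes was -0.022 ± 0.00566 (SD of the array medians, n = 2), where the other named genes had 0.009. On a log10 scale that is 1.05-fold, on a log2 scale 1.02-fold. In the dye reading the median was -0.004 ± 0.0311, where the other named genes had -0.0075. The members thus had array medians on the same side of 0, -0.026 on replicate 1 and -0.018 on replicate 2, while those of the other named genes were 0.001 and 0.015. The difference from the other genes is small beside the spread between genes on either array, and it carries no test.

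**Figure D2:**
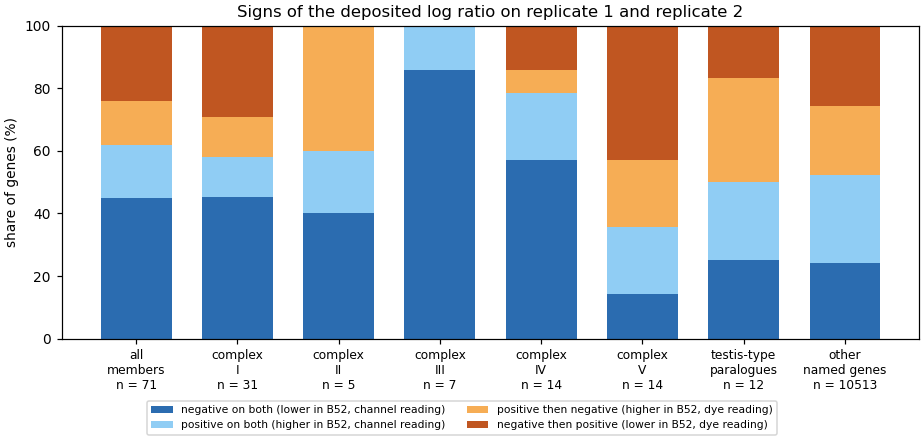
Share of genes (%, vertical axis) with each pair of signs on replicate 1 and replicate 2, for all members, each complex, the testis-type paralogues and the other named genes, with the number of genes under each bar. Complexes III and IV have the largest shares negative on both arrays (85.7% and 57.1%), and complex V has the smallest (14.3%).

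Complex I, the NADH dehydrogenase, contributed 31 genes. Its array medians were -0.049 on replicate 1 and -0.023 on replicate 2, giving -0.029 ± 0.0184 for the channel reading and -0.007 ± 0.0509 for the dye reading (SD of the array medians, n = 2). On both arrays 14 of the 31 genes were negative, and 4 were positive on both. The 14 were all subunits outside the paralogues, out of 28 such subunits.

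The complex has an arm in the matrix, which binds NADH and carries the iron-sulphur clusters, and an arm in the inner membrane, which pumps protons. Of 11 matrix-arm subunits, 5 were below 0 on both arrays and 2 above it, with a channel-reading median of -0.0295. Of 15 membrane-arm subunits, 8 were below 0 on both arrays and 0 above it, with a channel-reading median of -0.05. The arms overlapped widely, and the grouping was made after the values had been seen. ND-51, which holds the NADH-binding site, had -0.026 on replicate 1 and -0.077 on replicate 2. ND-75, the large iron-sulphur subunit, had -0.036 and -0.023. Both were within 0.1 of 0 on each array.

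The lowest complex I gene was ND-B14.5A, an accessory subunit of the matrix arm. It had -0.165 on replicate 1 and -0.276 on replicate 2, a mean of -0.22 ± 0.0785 in the channel reading (SD, n = 2 arrays; limma adjusted p = 0.765). In the dye reading the same values gave 0.0555 ± 0.312. Of all named genes, 74.3% were closer to 0 on replicate 1 and 88.4% on replicate 2, so the value was not extreme for these arrays. ND-B18, an accessory subunit of the membrane arm, had -0.122 and -0.112, with an SD between the arrays of 0.00707. Other membrane-arm subunits with a channel-reading mean near or below -0.1 were ND-B17 (-0.127), ND-B14.5B (-0.108) and ND-B22 (-0.098).

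At the other end, ND-B8, an accessory subunit of the matrix arm, had 0.126 on replicate 1 and 0.196 on replicate 2 (channel-reading mean 0.161 ± 0.0495, SD, n = 2 arrays; limma adjusted p = 0.812). ND-51L1, a paralogue of ND-51, had 0.129 and 0.228 and the highest channel-reading mean of all members, 0.178 (limma adjusted p = 0.801). ND-51 itself was negative on both arrays as deposited, but with block medians subtracted it had 0.03 and 0.058, positive like ND-51L1 at 0.083 and 0.115. These genes and ND-B14, at 0.105 and 0.044, were above 0 on both arrays together with the paralogue ND-24L, at 0.011 and 0.065.

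In the dye reading the largest complex I value was that of ND-13A, a matrix-arm subunit, with 0.211 on replicate 1 and -0.237 on replicate 2. Its dye-reading mean was 0.224 ± 0.0184 (SD, n = 2 arrays; limma adjusted p = 0.852), higher in B52, and its channel-reading mean was -0.013 ± 0.317. ND-13A is the member with the lowest adjusted p in the dye reading, and it did not pass. ND-13B, which despite the like symbol is a different matrix-arm subunit, had the opposite order of signs, -0.078 and 0.182, a dye-reading mean of -0.13. ND-SGDH of the membrane arm had -0.07 and 0.084. ND-MLRQ, counted with complex I by its symbol only and placed in neither arm, had 0.043 and -0.029.

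Complex II, succinate dehydrogenase, also works in the citric acid cycle. Of its genes 5 were measured on both arrays: SdhB, the iron-sulphur subunit, the membrane anchors SdhC and SdhD, and the paralogues SdhBL and SdhCL. SdhB had 0.195 on replicate 1 and -0.031 on replicate 2. SdhC had -0.077 and -0.016, and SdhD had 0.051 and -0.102. The 3 subunits thus had no shared pattern of signs, and 2 of them were positive on replicate 1 and negative on replicate 2. The complex median was -0.022 ± 0.058 (channel reading) and 0.0765 ± 0.0141 (dye reading) (SD of the array medians, n = 2). In the dye reading the array medians were 0.051 and 0.031, both below the median over gene means. The dye-reading median over gene means was above those of the other complexes and rests on 5 genes. On replicate 2 alone complex III was higher in that reading, at 0.072 against 0.031.

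Complex III, the cytochrome bc1 complex, contributed 7 genes, of which 6 were negative on both arrays. Its channel-reading median was -0.0785 ± 0.0283 and its dye-reading median 0.022 ± 0.0735 (SD of the array medians, n = 2). The array medians were -0.032 and -0.072, so the channel-reading median over gene means was lower than both. Without its paralogues the channel-reading median of the remaining 5 genes was -0.0445. RFeSP, the Rieske iron-sulphur protein, had -0.017 on replicate 1 and -0.072 on replicate 2. Cyt-c1, the cytochrome that hands electrons to cytochrome c, was the exception with 0.06 and 0.153, positive on both arrays. The small subunit UQCR-6.4 had -0.105 and -0.149, and UQCR-Q had -0.032 and -0.018. After subtraction of block medians, 4 of the 7 genes were negative on both arrays. Cyt-c1 then had 0.019 and -0.012, and RFeSP, at 0.039 and 0.063, was the gene positive on both.

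Complex III also held the one member far from the rest. UQCR-11L, a paralogue named after the small subunit UQCR-11, had -0.481 on replicate 1 and -1.06 on replicate 2. Its channel-reading mean was -0.768 ± 0.406 (SD, n = 2 arrays), 5.86-fold on a log10 scale and 1.7-fold on a log2 scale, lower in B52, with an unadjusted limma p of 0.00541 and a limma adjusted p of 0.705. In the dye reading it was 0.287 ± 1.09, smaller than the difference between the arrays. Of all named genes, 97.9% were closer to 0 on replicate 1 and 99.9% on replicate 2. With block medians subtracted the values were -0.413 and -0.931. The gene was measured by 1 probe, without intensities to show how bright it was, and UQCR-11 itself was not analysed here.

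**Figure D3:**
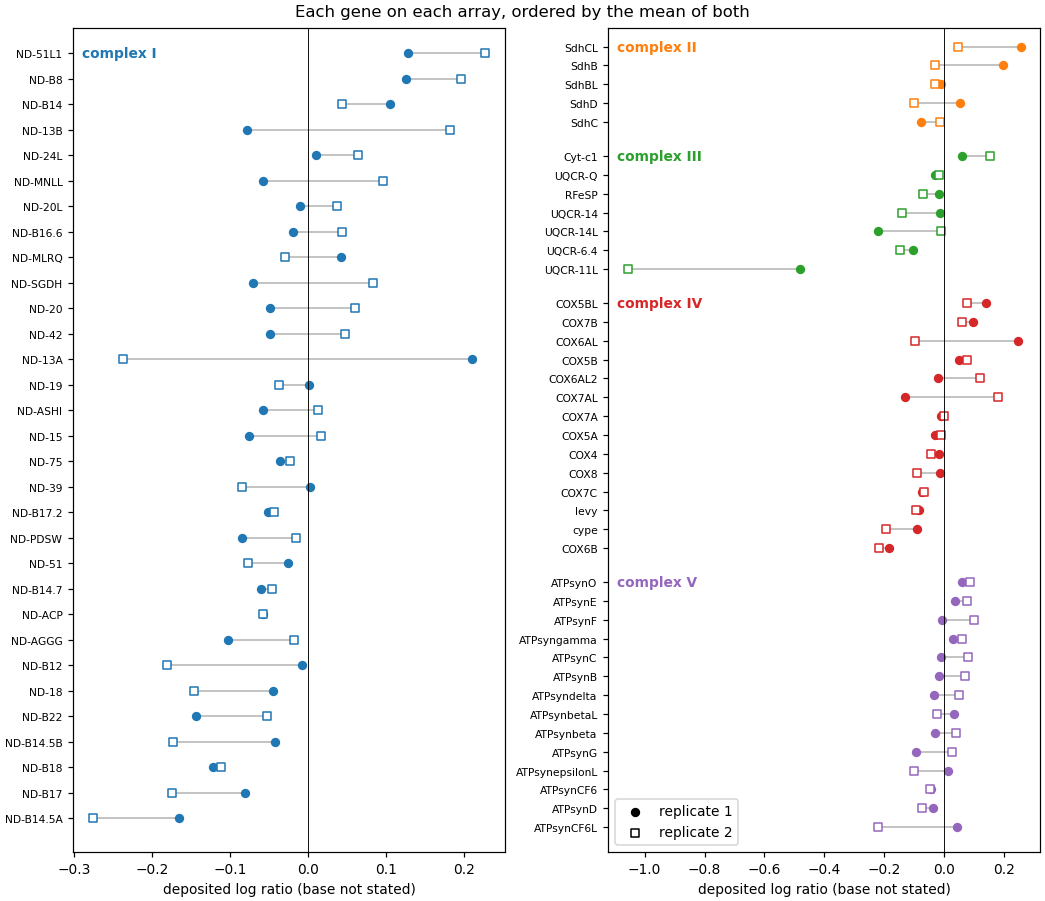
Deposited log ratio of each gene on replicate 1 (filled circles) and replicate 2 (open squares), by complex and ordered within it by the mean of both arrays, with a grey line joining the arrays. Most genes sit within 0.1 of 0 (41 of 71 on both arrays), and UQCR-11L reaches -1.06 on replicate 2.

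Complex IV, cytochrome c oxidase, was represented by nuclear genes for the small subunits around its mitochondrially encoded core. Assigned by symbol, 10 such subunits were measured on both arrays, 8 negative on both and 2 positive on both. Thus 0 of these 10 changed sign between the arrays. COX6B, which faces the intermembrane space, was lowest with -0.186 on replicate 1 and -0.218 on replicate 2. Its channel-reading mean was -0.202 ± 0.0226 (SD, n = 2 arrays; limma adjusted p = 0.775), 1.59-fold on a log10 scale and 1.15-fold on a log2 scale. The gene cype, which encodes subunit VIc, had -0.092 and -0.196, and levy, which encodes subunit VIa, had -0.086 and -0.095. COX7C had -0.073 and -0.067, and COX8 had -0.013 and -0.092. COX4, COX5A and COX7A were negative on both arrays but within 0.05 of 0.

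COX7B at 0.096 on replicate 1 and 0.06 on replicate 2, and COX5B at 0.049 and 0.074, were the positive subunits. Over these 10 subunits the arrays ran closely in parallel in the deposited direction, with Pearson's r of 0.904 and Spearman's rho of 0.903. The same r was 0.242 over all 14 genes of the complex, 0.0782 over 28 subunits of complex I and 0.543 over 11 subunits of complex V. Over all 12500 tested probes it was 0.00949, so the arrays as a whole did not run in parallel. The values share print positions, dyes and perhaps RNA extracts, so this is a description of the 10 genes. After subtraction of block medians, 6 of the 10 were negative on both arrays, 3 were positive on both and 1 had opposite signs. COX5B then was negative on both, at -0.007 and -0.057, while COX4 at 0.037 and 0.092 and COX8 at 0.032 and 0.0555 were positive on both. COX6B, cype, levy, COX7C, COX5A and COX7B kept their deposited signs. The median over all 14 genes of the complex, paralogues included, was -0.0135 ± 0.0053 (channel reading) and 0.00825 ± 0.0329 (dye reading) (SD of the array medians, n = 2). The array medians were -0.0195 and -0.027, both lower than the channel-reading median over gene means. That median became 0.022 with block medians subtracted, so its sign turned with that step.

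Complex V, the ATP synthase, had 14 measured genes. Of these, 2 were negative on both arrays, 3 positive on both, and 6 negative on replicate 1 and positive on replicate 2. Its channel-reading median was 0.005 ± 0.0371 and its dye-reading median -0.0178 ± 0.0237 (SD of the array medians, n = 2). The catalytic ATPsynbeta had -0.03 on replicate 1 and 0.038 on replicate 2, ATPsyndelta of the central stalk had -0.036 and 0.048, and ATPsyngamma, the rotating shaft, averaged 0.028 and 0.0585 over its 2 probes. None of the 3 exceeded 0.1 on either array. With block medians subtracted ATPsynbeta had -0.086 and -0.093 and ATPsyndelta -0.107 and -0.0465, negative on both.

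The membrane part and peripheral stalk of complex V gave 8 genes, and none exceeded 0.1 on either array. ATPsynO, which joins the stalk to the catalytic head, had 0.058 on replicate 1 and 0.085 on replicate 2. ATPsynE averaged 0.036 and 0.0765 over its 2 probes. ATPsynC, which forms the rotating ring, had -0.011 and 0.078, and ATPsynF had -0.008 and 0.1. ATPsynD at -0.039 and -0.075 and ATPsynCF6 at -0.044 and -0.049, both of the peripheral stalk, were the genes negative on both arrays. Subtracting block medians left 4 genes of complex V below 0 on both arrays and 6 above it.

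Several testis-type paralogues lacked values. Of 17 genes whose symbol ends in L, 12 had a value on both arrays, 3 on 1 array only and 2 on neither. Of their probes 29.4% lacked a value on an array, against 3.13% for members that are not paralogues and 14.8% for all named probes. ATPsynGL had -0.544 on replicate 1 and ND-B14.5AL had 0.073, both without a value on replicate 2. SdhAL, whose namesake encodes the flavoprotein subunit, had 0.667 on replicate 2 and no value on replicate 1. COX4L and COX6CL had no value on either array. ND-51L2, a further paralogue of ND-51 whose symbol ends in a digit, had 0.871 on replicate 1 alone. Values on 1 array have no replicate and entered no test.

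The 12 testis-type paralogues measured on both arrays had a median of 0.00875 ± 0.0209 (channel reading) and 0.03 ± 0.0046 (dye reading) (SD of the array medians, n = 2). In the dye reading the array medians were 0.0115 and 0.018, both below the median over gene means. The remaining 57 members, paralogues with a digit also left out, had -0.029 ± 0.00919 and -0.005 ± 0.0417. Signs of the paralogues fell in every pattern: 3 were below 0 on both arrays, 3 above it, 4 positive on replicate 1 and negative on replicate 2, and 2 the reverse. Within 0.1 of 0 on both arrays were 4 of the 12 (33.3%) and 37 of the 57 (64.9%).

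Apart from UQCR-11L, the paralogue with the largest dye-reading mean was COX6AL, with 0.246 on replicate 1 and -0.099 on replicate 2 (0.172 ± 0.104, SD, n = 2 arrays). COX7AL ran the other way with -0.13 and 0.179, a dye-reading mean of -0.154 ± 0.0346. SdhCL had 0.255 and 0.044, and COX5BL had 0.138 and 0.076, so both were above 0 on both arrays. UQCR-14L had -0.223 and -0.011. ATPsynCF6L had 0.042 and -0.223, ATPsynepsilonL 0.012 and -0.101, and ATPsynbetaL 0.033 and -0.025, the 3 sharing 1 order of signs. ND-20L at -0.01 and 0.037 and SdhBL at -0.012 and -0.032 were near 0.

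For 9 testis-type paralogues the member of the same name without the L was also measured, with levy as the partner of COX6AL. The difference of log ratios, paralogue minus partner, had a median of 0.063 on replicate 1 and -0.001 on replicate 2. It was positive on both arrays for 2 pairs, negative on both for 1 and of opposite signs for 6. SdhCL exceeded SdhC by 0.332 on replicate 1 and by 0.06 on replicate 2, and COX5BL exceeded COX5B by 0.089 and 0.002. SdhBL minus SdhB was -0.207 and -0.001. The pairs thus showed no shared direction in the channel reading, and 4 of 9 paralogues were farther from 0 than the partner on both arrays. With block medians subtracted, the channel-reading median of the differences was 0.091, set against 0.008 without that step.

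**Figure D4:**
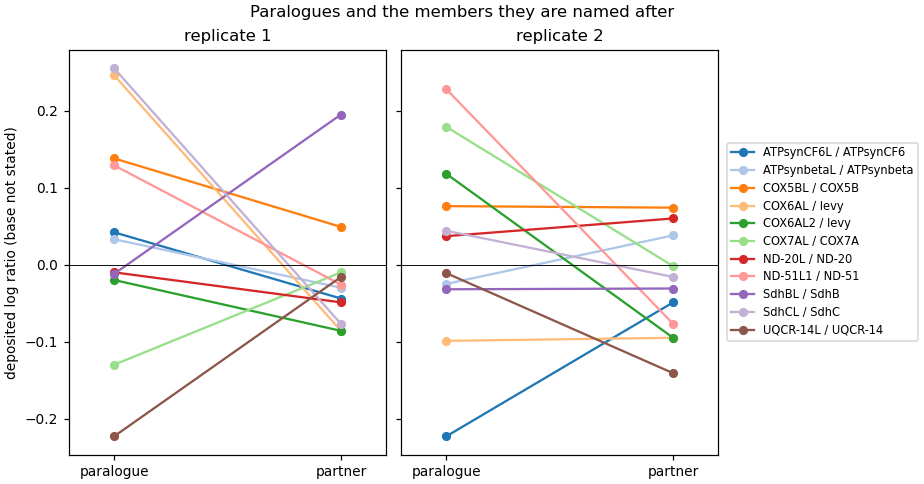
Deposited log ratio of each paralogue (left) and of the member it is named after (right) on replicate 1 and replicate 2, with a line for each of 11 pairs, 9 testis-type and 2 with a symbol ending in a digit (COX6AL2 with levy, ND-51L1 with ND-51). Lines cross in both directions on each array.

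Other mitochondrial genes were in 4 lists, and limma called 0 of their probes at an adjusted p of 0.05 in either reading. At an unadjusted p under 0.05 limma had 4 of their 55 probes (7.27%) when channels were read and 5 (9.09%) when dyes were read, near the shares over all probes of 6.52% and 6%. Electron carriers and assembly factors, among them the genes of ubiquinone synthesis, had 16 measured genes, of which 11 were below 0 on both arrays and 2 above it. Their channel-reading median was -0.056 ± 0.0202 (SD of the array medians, n = 2). Ttc19, an assembly factor of complex III, had -0.164 on replicate 1 and -0.192 on replicate 2, and qless, which makes the side chain of ubiquinone, had 0.144 and 0.16. For 13 of these 16 genes the deposited sign was the same on both arrays.

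The citric acid cycle and pyruvate dehydrogenase list had 13 measured genes, 5 positive on both arrays, 2 negative on both, and 5 positive on replicate 1 and negative on replicate 2. Fum3, a fumarase gene, had 0.36 and 0.185. PCB, pyruvate carboxylase, averaged 0.587 and -0.448 over 3 probes, a dye-reading mean of 0.518 ± 0.0988 (SD, n = 2 arrays), and the lowest adjusted p of the list was 0.343 in limma in that reading. Carriers of the mitochondrial membranes had 10 measured genes, 5 of them positive on replicate 1 and negative on replicate 2. Their dye-reading median was 0.0985 ± 0.0194, with deposited array medians of 0.093 and -0.0655. The ADP/ATP carrier Ant2 had 0.366 and -0.218. The list of mitochondrial gene expression and biogenesis had 10 measured genes, 5 of them negative on replicate 1 and positive on replicate 2. Its dye-reading median was -0.102 ± 0.00919. The genes named by size had another pattern, positive on both arrays. They were mtDNA-helicase at 0.847 and 0.299 and PolrMT, the mitochondrial RNA polymerase, at 0.142 and 0.31. The medians of the 4 lists fell on both sides of 0 in the dye reading, where the oxidative phosphorylation median was near 0.

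Markers of tissues rich in mitochondria or in the paralogues were set beside these values. Of 9 muscle markers, 8 were positive on replicate 1 and negative on replicate 2, with array medians of 0.186 and -0.489 and a dye-reading median of 0.314 ± 0.214 (SD of the array medians, n = 2). Of the oxidative phosphorylation genes 10 of 71 had that order of signs, and their dye-reading median was -0.004. Testis markers had 16 measured genes, 7 above 0 on both arrays, 2 below it and 5 positive on replicate 1 and negative on replicate 2, with array medians of 0.113 and 0.01. The 4 fat body markers had array medians of 0.157 and 0.061. The part of tissue composition in the values of the members was not tested, and in whole larvae a different number of cells of a type cannot be told apart from a different amount of RNA per cell.

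**Figure D5:**
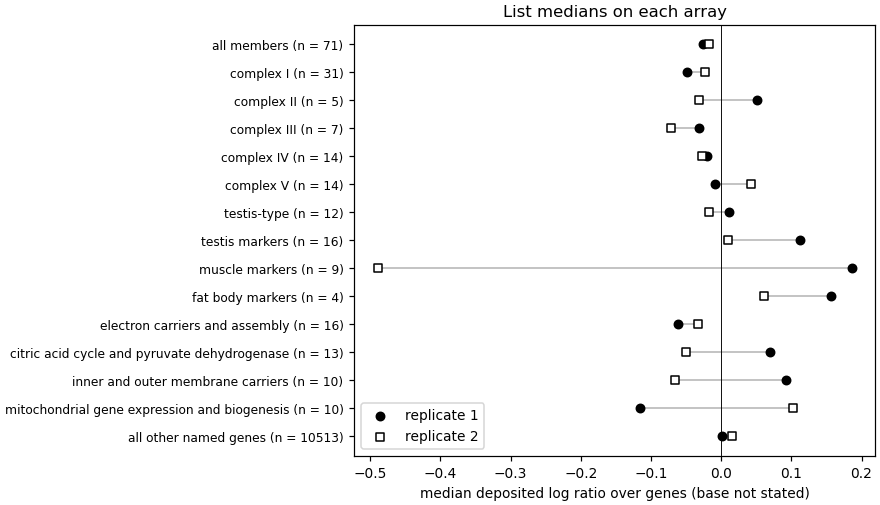
Median deposited log ratio over the genes of each list on replicate 1 (filled circles) and replicate 2 (open squares), with the number of genes in brackets. The oxidative phosphorylation genes lie near 0 on both arrays (-0.026 and -0.018), while the muscle markers lie at 0.186 on replicate 1 and -0.489 on replicate 2.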

How the data were processed

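The authors deposited 1 value per spot and array, used here as a score: a log ratio whose base and direction are unstated. For the image analysis, the background correction and the normalisation, a description is not given here by any label or header. Each array had 15744 spots, and 5 spots with the code -10000 were treated as missing. Probes took current RefSeq symbols through the gene identifier of the platform annotation, 13147 with 1 symbol and 99 with several. Of those with 1 symbol, 12519 matched RefSeq and the rest kept the annotation's symbol. In 24 sub-grids, 960 unnamed spots at repeated positions were treated as controls and dropped.

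Probes with a value on both arrays were averaged per gene. A ± value is the SD of 2 arrays, for a list the SD of the 2 array medians, and the list median is taken over gene means. A list median can therefore lie outside its array medians, and the SD does not give its precision. Limma 3.58.1 in R 4.3.3 (lmFit and eBayes, 1 residual degree of freedom, Benjamini-Hochberg over 12500 probes) tested each reading, and was tested on simulated data. The simulated data held planted log ratios of 2 in either direction, larger than any member value. They do not show if changes as small as those of the members would be called. Summaries used Python 3.11.15 with pandas 2.3.3.

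Members and lists were chosen with earlier results of these data known. ND-MNLL, named after its first residues, was not counted as a paralogue although its symbol ends in L, a choice made after the values had been seen. Named genes were all paralogues and their partners, the Sdh genes, and in each other complex the 2 genes per sign pattern with the largest smaller value of both arrays. From each mitochondrial list the 2 largest by that value could be named. ATPsynC, ATPsynF, ATPsyngamma, COX4, COX5A, COX7C, COX8, ND-51, ND-75, ND-B14, ND-B14.5B, ND-B17, ND-B17.2, ND-B22, RFeSP and UQCR-Q were named after their values were seen. As no genome build is named for the platform, gene positions were left out.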

Additional observations from a re-analysis of the deposited data

How the results depend on the processing

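Limma called 0 member probes in every setting run: centring, scaling, subtraction of block medians, the robust variance model and probes with 1 symbol only. The single member probe past the size rule in the channel reading was also past it with centring, scaling or block medians, and 0 were at a size of 1. Of 138 comparisons with an alternative, 112 moved a median by less than the SD of the array medians or a count by less than 1.5 times, and 26 did not. Many of the 112 could hardly have moved, so the count is no measure of robustness. The median over probes equals the mean for genes with at most 2 probes. Limma called 0 of all probes in every setting, and a shift on dropping an array is tied to the SD it was set against. In the channel reading the median of all members was -0.029 with each array centred or without paralogues and -0.0125 with block medians subtracted. With block medians subtracted, complex I had -0.048, complex IV 0.022 and the paralogue minus partner difference 0.091. Without paralogues complex III had -0.0445 and complex IV -0.04175, and complex IV had -0.0205 when centred. In the dye reading complex II had 0.05325 with block medians subtracted, and the testis-type median was 0.036 when centred and 0.0195 with symbols ending in L and a digit. On single arrays the channel-reading medians ran from -0.049 to -0.023 for complex I, -0.031 to 0.051 for complex II, -0.072 to -0.032 for complex III, -0.027 to -0.0195 for complex IV, -0.0095 to 0.043 for complex V, -0.018 to 0.0115 for testis-type paralogues and -0.001 to 0.063 for their difference from partners. Dye-reading medians ran from 0.031 to 0.051 for complex II, -0.043 to -0.0095 for complex V and 0.0115 to 0.018 for testis-type paralogues. Where the cause of a shift is not given by the setting itself, the cause was not tested. No member was an assembly factor with a COX symbol, so leaving these out was not run. Limma has no residual degree of freedom on a single array and was not run there. Dim probes could not be judged without intensities. Each ratio already pairs B52 and control RNA on the same array, and both arrays belong to 1 group of ratios, so no further pairing was made.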

Other observations

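Among the members, 5 genes had 2 probes with a value on both arrays, which shows how far probes of 1 gene can differ. The largest difference between probes was 0.147 on replicate 2, for ND-MNLL, followed by 0.139 for ATPsyngamma and 0.121 for ATPsynB on that array. On replicate 1 the differences ran from 0.036 for ATPsynB to 0.096 for ND-MNLL. The other genes with 2 such probes differed by 0.057 (ATPsynE) and 0.012 (ND-ACP) on replicate 2. A probe of ATPsynB and a probe of ATPsyngamma held identical values, 0.001 on replicate 1 and 0.128 on replicate 2. Both entered the means of their genes. The reason was not tested, and the probe differences of these genes may not be independent. The median size of the members' values was 0.051 on replicate 1 and 0.072 on replicate 2. A second probe of ND-B17 had -0.642 on replicate 1 and no value on replicate 2, where the probe used here had -0.08 and -0.174.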
